A study of Mus musculus with 15 samples.

Results

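The transcripts described here are 10 genes of the oxygen-sensing pathway of the hypoxia-inducible factors (HIF). They comprise the genes of 2 factor subunits, *Hif1a* and *Epas1*, and 8 genes that the factors are known to induce and that do not encode glycolytic enzymes, *Egln1*, *Egln3*, *Vegfa*, *Adm*, *Car9*, *Bnip3*, *Mxi1* and *Ankrd37*. The 10 were picked by name out of 24134 genes listed by Entrez gene ID in each of the deposited count tables. Their fold changes after *Tnks* and *Tnks2* knockdown and after either tankyrase inhibitor were already known when they were picked, so their values in those 3 comparisons are given as a description. All 10 passed the filter on low counts in every fit.

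Poly(A) RNA was sequenced from primary articular chondrocytes at passage 0, which the study took from the knee cartilage (femoral condyles, tibial plateaus) of ICR mice aged 4 to 5 days. In the drug table, cells spent 108 h in the solvent DMSO, in 10 μM XAV939 or in IWR-1 at the same dose. Both drugs inhibit the poly(ADP-ribose) polymerases encoded by *Tnks* and *Tnks2*. In the siRNA table, cells received a control siRNA (siCtrl) or siRNAs against both *Tnks* and *Tnks2* (siTnks/2), and no time was given. Each of the 5 groups held 3 libraries, named by the study as biological replicates, and no genotype other than the ICR strain was given. The number of animals behind a culture was not stated.

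HIF-1α, encoded by *Hif1a*, and HIF-2α, encoded by *Epas1*, pair with ARNT and bind short DNA elements near genes that help cells to live with little oxygen. When oxygen is plentiful, prolyl hydroxylases mark the α subunits, the von Hippel-Lindau protein recognises the mark, and the subunits are destroyed, so that the factors are governed largely at the protein level and much less at the level of their own RNA. Cartilage has no blood vessels, HIF-1α is required for growth plate chondrocytes to survive, and HIF-2α is known for inducing matrix-degrading enzymes in articular cartilage.

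The sequence these factors read is short. Its core was searched on both strands as ACGTG and as GCGTG in the RefSeq start-site windows of the GRCm38.p6 assembly, each reaching from 250 bases before to 50 bases after an annotated transcription start. Windows were listed for 9 of the 10 genes, 12 windows in all, since *Vegfa* has 2 and *Mxi1* has 3, and *Epas1* was not among them. One match per window upstream of the start is printed below to show the letters themselves, nearest the start and with ACGTG taken first. Each runs 5′ to 3′ on the strand of its gene, with the core in capitals (CACGT and CACGC are the cores read on the opposite strand).
Hif1a, chr12:73907787-73907811, plus strand: gctgagagcaACGTGggctggggtg
Egln1, chr8:124949308-124949332, minus strand: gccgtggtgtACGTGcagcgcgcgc
Egln3, chr12:54204089-54204113, minus strand: tgcatctcagACGTGagatccaggt
Vegfa, chr17:46025360-46025384, minus strand: agtgcgtgccCACGTcagagagcaa
Adm, chr7:110627593-110627617, plus strand: caaatctgacCACGCccaccgtccg
Car9, chr4:43506998-43507022, plus strand: atttccgatgCACGTacagcccgtc
Bnip3, chr7:138909599-138909623, minus strand: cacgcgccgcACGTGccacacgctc
Mxi1, chr19:53329337-53329361, plus strand: tcggcacccgACGTGcactggcggg
Mxi1, chr19:53329660-53329684, plus strand: cggatgatcaACGTGcagcgcctgc
Ankrd37, chr8:45999851-45999866, minus strand: gtgtttgggtACGTGa

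The cores printed lie at position -6 in *Ankrd37*, -18 in *Car9*, -25 from the third *Mxi1* start, -54 in *Adm*, -66 from the second *Mxi1* start, -68 in *Egln1* and -70 in *Hif1a*. In *Bnip3* it lies at -107, with GCGTG matches nearer the start at -99 and -35. In *Vegfa* it lies at -211 from its second start, and in *Egln3* at -229. The printed *Bnip3* stretch also holds GCGTG matches at -117 and -99, and the *Vegfa* stretch a GCGTG at -218, left in lower case. In the GENCODE M21 annotation of the same assembly, the *Adm*, *Bnip3* and *Egln3* stretches lay upstream of the gene, those of *Hif1a* and of the second *Mxi1* start lay in an intron of a longer transcript, and the other 5 overlapped an exon of some transcript of the gene. ACGTG occurred in the windows of 8 of the 9 genes, against 21.8% of 27025 genes with a window. Either core occurred in 9 of 9, against 46.7% of those genes. The first *Vegfa* and first *Mxi1* windows held neither. The end of the *Hif1a* window and that of the second *Vegfa* window were found in no GENCODE M21 transcript of the gene. The ends of the other windows were. A match of 5 letters is a description of the sequence and says nothing about whether a factor was bound there.

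**Figure D1:**
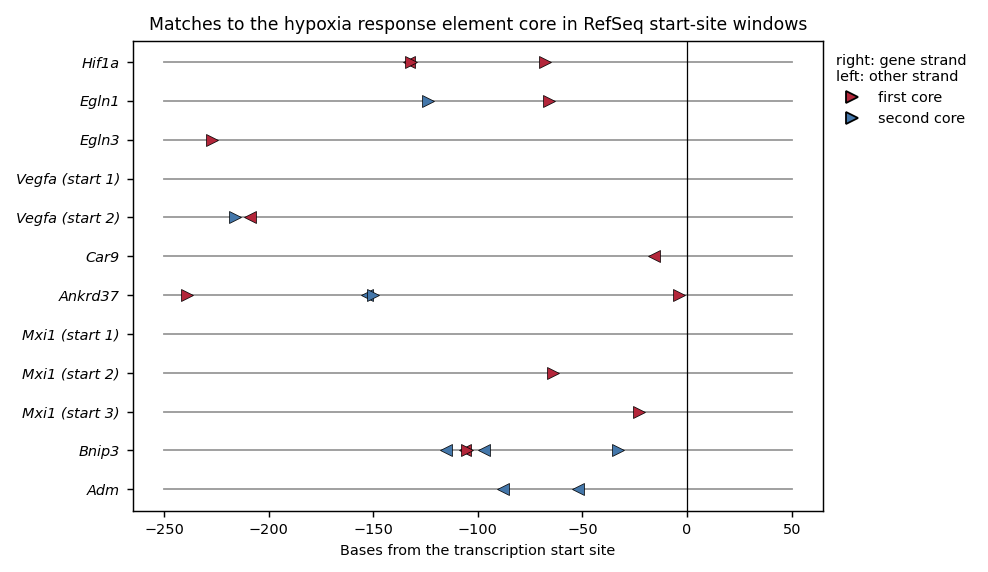
Positions of the 2 core letter strings in the 12 start-site windows of 9 genes, in bases from the transcription start (horizontal axis); red triangles are ACGTG and blue ones GCGTG, pointing right for the strand of the gene and left for the other strand, and starts are numbered along the gene. All 22 matches lie upstream of the start, 10 of the 12 windows hold at least 1, and the overlapping pairs in *Hif1a* and *Bnip3* are single palindromes CACGTG read on both strands.

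Library totals lay between 26857070 and 36615194 counts. Counts were scaled by TMM, a correction for differing library composition, and are given as CPM, counts on the usual common scale of library size. Log2 fold changes, their standard errors (SE) and p-values come from edgeR's quasi-likelihood test fitted over all genes of a table, and "past 0.05" refers to the Benjamini-Hochberg adjusted p over all those genes. The targeted genes fell in the knockdown. *Tnks* went from 65.8 ± 6.49 CPM to 18.7 ± 5.70 (SD, n = 3 each) and *Tnks2* from 118 ± 2.35 to 54.7 ± 8.68, with no overlap between groups. All 8 chondrocyte markers examined (*Col2a1*, *Acan*, *Sox9*, *Comp*, *Col9a1*, *Col11a1*, *Hapln1*, *Matn3*) were detected in every group, and their summed level ran from 26680 to 35790 CPM in DMSO, 36740 to 55000 in XAV939 and 88060 to 110900 in IWR-1. In the siRNA table the same sum ran from 84380 to 113100 CPM in siCtrl and from 119500 to 194200 in siTnks/2. Replicate 2 of siCtrl was the highest of its group for 7 of the 8 target transcripts, which bears on the knockdown values below.

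With either inhibitor all 8 target transcripts were lower than in DMSO, in every library. Of all genes tested, 16.8% lay below DMSO in this way with XAV939 and 26.4% with IWR-1. The mean levels with XAV939 ran from 29.8% of the DMSO level for *Egln3* to 63.1% for *Ankrd37*, and those with IWR-1 from 16.6% for *Egln3* to 60.9% for *Bnip3*. After knockdown, 1 of the 8 targets, *Adm*, was past 0.05, at 56.2% of siCtrl, where 18% of all genes were called. With the replicate number as a block, *Bnip3*, *Car9* and the factor *Epas1* were past 0.05 as well, where 34.6% of all genes were called. Of the factors, *Epas1* was past 0.05 with IWR-1, at 42.9% of DMSO, and *Hif1a* after knockdown, at 130.1% of siCtrl, a call lost in some fits that left out 1 library. With XAV939 neither factor was past 0.05, *Hif1a* being at 77.3% and *Epas1* at 125% of DMSO, and both were with the replicate block.

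**Figure D2:**
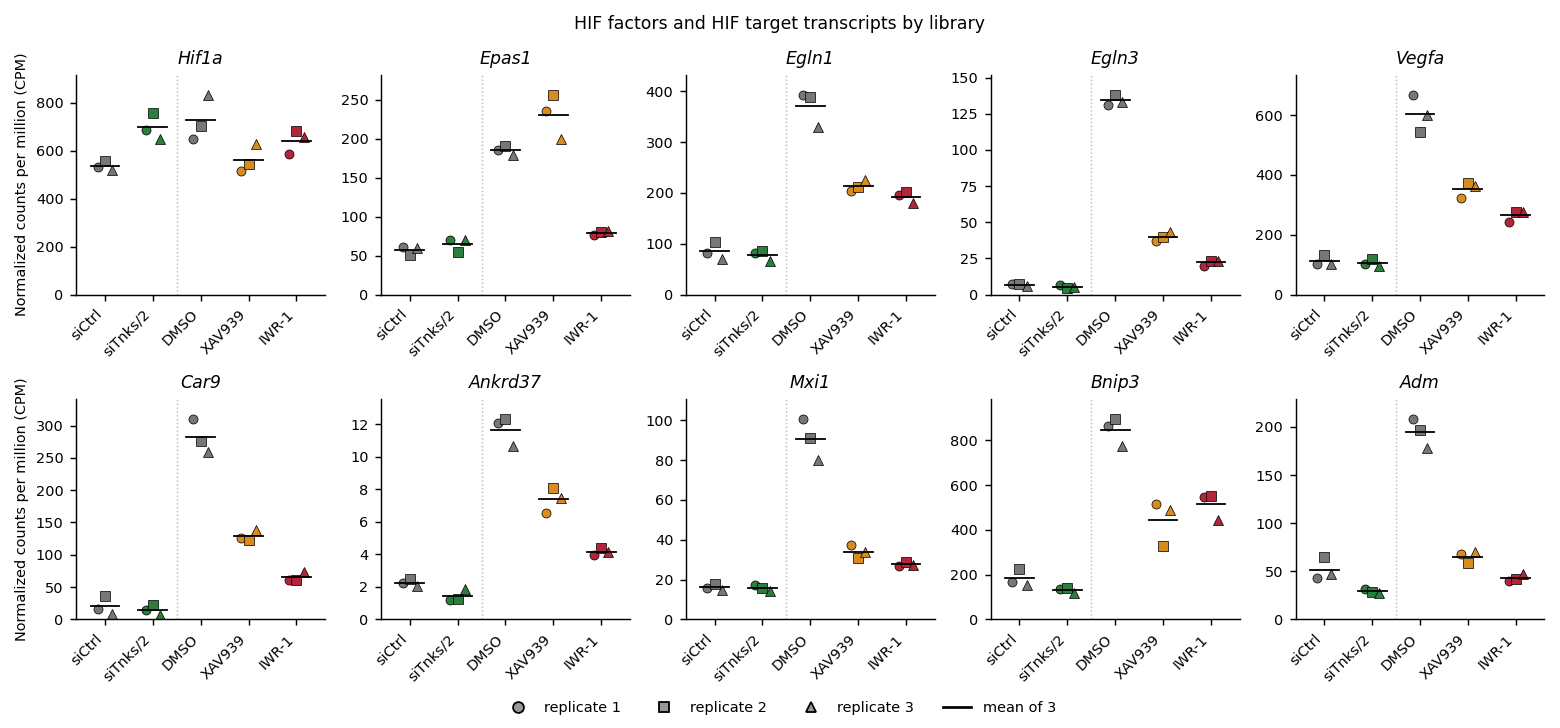
Normalised level of each of the 10 transcripts in each of the 15 libraries in CPM (vertical axis, linear, starting at 0); symbols mark replicates 1 to 3 and bars the mean of 3, and a dotted line separates the siRNA table from the drug table, which were normalised separately. For *Egln3* the DMSO libraries sit between 131 and 138 CPM, the XAV939 libraries between 37.2 and 43.0, and the IWR-1 libraries between 19.99 and 23.5.

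*Hif1a* (gene ID 15251, chr12:73901324-73947554, plus strand) stood at 532, 555 and 521 CPM in siCtrl replicates 1, 2 and 3 and at 688, 755 and 649 CPM in the corresponding siTnks/2 libraries. Every knockdown library lay above every control, and the log2 fold change was 0.38 (SE 0.08), past 0.05. That call was lost without siCtrl replicate 1 (0.38), 2 (0.41) or 3 (0.36), or without siTnks/2 replicate 1 (0.39). In the drug table the transcript stood at 647, 700.4 and 834 CPM in DMSO, at 515, 544 and 628 in XAV939 and at 587, 681 and 657 in IWR-1. XAV939 libraries lay below all DMSO libraries, with a log2 fold change of -0.37 (SE 0.13) that was not past 0.05. It was past 0.05 in 3 of 16 alternatives, among them the replicate number as a block (-0.37) and 1 fit that left out a library. IWR-1 libraries overlapped DMSO, with -0.18 (SE 0.13).

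*Epas1* (gene ID 13819, chr17:86753864-86833410, plus strand) was measured at 186, 190.4 and 179 CPM in DMSO, at 236, 257 and 200.1 CPM in XAV939 and at 76.2, 80.7 and 81.1 CPM in IWR-1. The 3 drug groups did not overlap, XAV939 lying above DMSO and IWR-1 below it. The log2 fold change was -1.22 (SE 0.11) for IWR-1, past 0.05, and 0.32 (SE 0.10) for XAV939, past 0.05 only with the replicate block (0.31), upper-quartile normalisation (0.37), DESeq2 (0.31) or without XAV939 replicate 3 (0.40). With the siRNAs it was at 60.6, 50.6 and 59.5 CPM in siCtrl and 70.5, 54.4 and 69.5 CPM in siTnks/2. Those groups overlapped, the log2 fold change being 0.19 (SE 0.12), or 0.18 and past 0.05 with the replicate block. It was also past 0.05 in 1 of 6 fits that left out a library.

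*Egln3* (gene ID 112407, chr12:54178981-54203874, minus strand) encodes PHD3, the prolyl hydroxylase most strongly induced by the factors it helps to degrade. It was measured at 131, 138 and 133 CPM in DMSO, at 37.2, 39.8 and 43.0 CPM in XAV939 and at 19.99, 23.5 and 23.5 CPM in IWR-1. The 3 groups formed 3 separate levels with the DMSO libraries uppermost, and the log2 fold changes were -1.75 (SE 0.10) with XAV939 and -2.59 (SE 0.10) with IWR-1. It was the lowest of the 10 fold changes in both, and in IWR-1 ranked 184 from the bottom of 13873 genes tested. In the siRNA table its level was 7.15, 7.13 and 6.12 CPM in siCtrl and 6.52, 4.49 and 4.96 CPM in siTnks/2. Those overlapped, with -0.35 (SE 0.17).

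*Egln1* (gene ID 112405, chr8:124908587-124949254, minus strand) encodes PHD2, the main oxygen-dependent hydroxylase of HIF-1α. Levels were 394, 389 and 329.6 CPM in DMSO, 205, 211 and 225 CPM in XAV939 and 196, 202 and 179 CPM in IWR-1. Both inhibitor groups lay well below DMSO and close to each other, at log2 fold changes of -0.80 (SE 0.11) and -0.95 (SE 0.11). The siRNA libraries gave 81.7, 103 and 70.6 CPM for siCtrl and 81.8, 85.4 and 65.7 CPM for siTnks/2. These overlapped, at -0.13 (SE 0.16), and the sign turned to 0.03 without siCtrl replicate 2.

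*Vegfa* (gene ID 22339, chr17:46016993-46032377, minus strand) encodes the main growth factor of blood vessels. It was at 669, 542 and 599.8 CPM in DMSO, at 324, 374 and 364 CPM in XAV939 and at 241, 277 and 275 CPM in IWR-1. The drug groups did not overlap one another, with log2 fold changes of -0.77 (SE 0.12) for XAV939 and -1.19 (SE 0.12) for IWR-1. With siCtrl the values were 103, 131 and 102 CPM and with siTnks/2 103, 119.9 and 95.9 CPM. No difference stood out between them, -0.07 (SE 0.12), and the sign turned to 0.05 without siCtrl replicate 2.

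*Adm* (gene ID 11535, chr7:110627657-110629820, plus strand) encodes adrenomedullin, a secreted peptide that widens vessels. DMSO libraries held 208, 197 and 178 CPM, XAV939 libraries 67.4, 58.6 and 69.5 CPM, and IWR-1 libraries 39.6, 41.8 and 47.1 CPM. The 3 levels were again separate, at log2 fold changes of -1.58 (SE 0.11) with XAV939 and -2.18 (SE 0.11) with IWR-1. After siRNA it was at 43.2, 64.5 and 46.9 CPM in siCtrl and at 31.6, 28.1 and 27.3 CPM in siTnks/2. Here the knockdown libraries lay below every control, with -0.83 (SE 0.15), past 0.05, a call that was lost without siTnks/2 replicate 1 (-0.90).

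*Car9* (gene ID 230099, chr4:43507026-43513729, plus strand) encodes carbonic anhydrase 9, a membrane enzyme that acidifies the cell surroundings. It stood at 309.9, 276 and 259.6 CPM in DMSO, at 126, 123 and 138 CPM in XAV939 and at 60.7, 61.2 and 73.9 CPM in IWR-1. XAV939 and IWR-1 gave log2 fold changes of -1.13 (SE 0.11) and -2.11 (SE 0.12), and none of the 3 groups overlapped. In the siRNA table it spread widely within each group, at 16.5, 35.4 and 8.94 CPM in siCtrl and 14.7, 21.4 and 7.21 CPM in siTnks/2. Each knockdown library was below the control of the same replicate number although the groups overlapped. The log2 fold change was -0.49 (SE 0.55), turned to 0.18 without siCtrl replicate 2, and was -0.41 and past 0.05 with the replicate block.

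*Bnip3* (gene ID 12176, chr7:138890836-138909506, minus strand) encodes a mitochondrial receptor that sends mitochondria to autophagy. Its levels were 863, 895 and 776 CPM in DMSO, 515.5, 329.5 and 488 CPM in XAV939 and 549, 551 and 442 CPM in IWR-1. Both inhibitor groups lay below DMSO, at log2 fold changes of -0.93 (SE 0.17) and -0.72 (SE 0.17), and XAV939 replicate 2 was the lowest of the 9 libraries. With siRNAs 168, 225 and 155 CPM in siCtrl stood against 137, 140.1 and 117 CPM in siTnks/2. These did not overlap, and -0.48 (SE 0.15) was past 0.05 only with the replicate block (-0.46) or DESeq2 (-0.48).

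*Mxi1* (gene ID 17859, chr19:53310128-53373293, plus strand) encodes an antagonist of MYC. It was at 101, 91.1 and 80.25 CPM in DMSO, at 37.2, 31.1 and 33.9 CPM in XAV939 and at 26.8, 28.6 and 27.4 CPM in IWR-1. Levels with either drug were far below DMSO and near each other, with log2 fold changes of -1.41 (SE 0.11) and -1.72 (SE 0.11). The siRNA libraries held 15.9, 17.9 and 14.5 CPM in siCtrl and 17.5, 15.7 and 14.3 CPM in siTnks/2. Those overlapped, with -0.02 (SE 0.12), which turned to 0.06 without siCtrl replicate 2 and to 0.04 without siTnks/2 replicate 3.

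*Ankrd37* (gene ID 654824, chr8:45996908-46000414, minus strand) encodes a small ankyrin-repeat protein. Per exon length its mean was the lowest of the 10 in every group, though it overlapped *Mxi1* with XAV939. Its levels were 12.1, 12.3 and 10.7 CPM in DMSO, 6.55, 8.10 and 7.47 CPM in XAV939 and 3.95, 4.36 and 4.12 CPM in IWR-1. The drug groups did not overlap, with -0.67 (SE 0.13) for XAV939 and -1.49 (SE 0.14) for IWR-1. With siRNA it was at 2.24, 2.48 and 2.05 CPM in siCtrl and 1.21, 1.25 and 1.86 CPM in siTnks/2. The knockdown libraries were all lower, at -0.64 (SE 0.22), which was past 0.05 only without siTnks/2 replicate 3 (-0.87). Of its exon bases 57 (3.7%) are shared with *Ufsp2* on the other strand, and the strand setting of the counting was not stated.

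With XAV939, 8 of the 10 genes were past 0.05, all of them targets and all lower, where 17.4% of the 13873 genes tested were called, 7.56% higher and 9.81% lower. For all 10 the XAV939 libraries were separate from DMSO, 9 lower and *Epas1* higher, where 33.2% of genes were, 16.4% higher and 16.8% lower. With IWR-1, 9 of 10 were called, all lower, where 36.4% of genes were called, 16.2% higher and 20.2% lower. The same 9 lay below DMSO without overlap, where 51.1% of genes did not overlap, 24.7% higher and 26.4% lower. After knockdown 2 of 10 were called, *Hif1a* higher and *Adm* lower, where 18% of 13672 genes were called, 10.4% higher and 7.61% lower. *Hif1a* lay above siCtrl without overlap and *Adm*, *Bnip3* and *Ankrd37* below it, where 43.8% of genes did not overlap, 21.6% higher and 22.2% lower. With the replicate block the knockdown count was 5, where 34.6% of genes were called, and the XAV939 count 10, where 33.4% were. As these contrasts were used to pick the genes, the counts are printed beside the share of all genes and nothing is read from them. The XAV939 and IWR-1 comparisons share their 3 DMSO libraries.

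**Figure D3:**
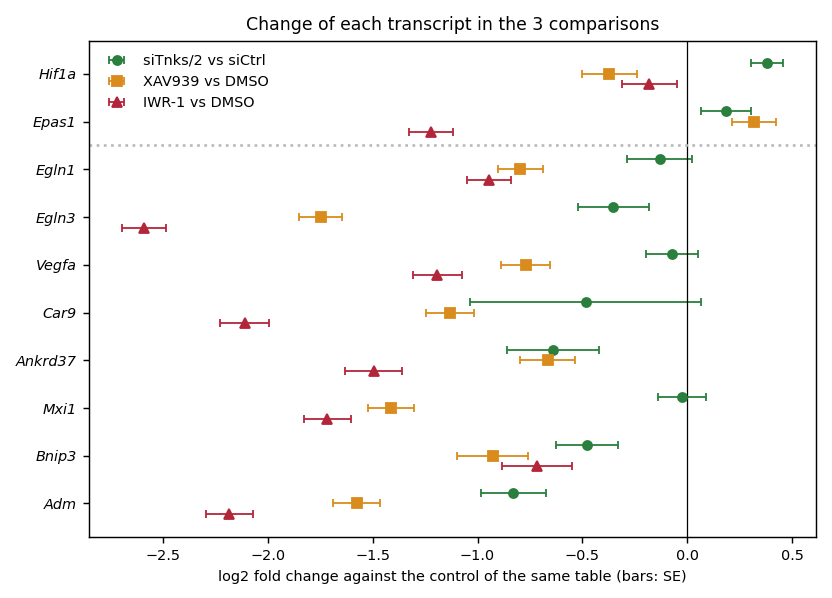
Log2 fold change of each of the 10 transcripts (horizontal axis) after *Tnks* and *Tnks2* knockdown (green circles), XAV939 (orange squares) and IWR-1 (red triangles), each against the control of its own table; bars are standard errors and a dotted line separates the factors from their targets. The 8 targets run from -0.83 to -0.02 after knockdown, from -1.75 to -0.67 with XAV939 and from -2.59 to -0.72 with IWR-1.

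The median log2 fold change of the 8 targets was -0.42 after knockdown, -1.03 with XAV939 and -1.61 with IWR-1, beside medians of 0.00, 0.02 and 0.01 over all genes tested. Since these are bulk libraries, fewer cells that carry a transcript and less of it per cell cannot be told apart. Some markers of other cell types moved with the drugs as well, where 17.4% of all genes were called with XAV939 and 36.4% with IWR-1. The summed level of 6 fibroblast and synovium markers (*Col1a1*, *Col3a1*, *Thy1*, *Pdpn*, *Prg4*, *Dpt*) ran from 9201 to 12030 CPM in DMSO, 4332 to 6417 in XAV939 and 3287 to 5676 in IWR-1, and 4 of 6 were lower past 0.05 with each drug. The 6 leukocyte markers (*Ptprc*, *Cd68*, *Csf1r*, *Lyz2*, *Cd14*, *Adgre1*) summed to 35.0 to 44.4 CPM in DMSO, 31.7 to 38.5 in XAV939 and 14.4 to 20.2 in IWR-1, with *Ptprc* and *Adgre1* under 1 CPM in every group. Of 5 tested, 0 were past 0.05 with XAV939 and 3 were lower with IWR-1. The 6 endothelial markers (*Pecam1*, *Cdh5*, *Tek*, *Emcn*, *Vwf*, *Cldn5*) summed to at most 2.73 CPM in the drug table, and *Cldn5* was at 0 in both inhibitor groups. Of 2 tested, 0 were past 0.05 with XAV939 and 2 were lower with IWR-1. The 6 osteoblast markers (*Runx2*, *Sp7*, *Bglap*, *Ibsp*, *Alpl*, *Dmp1*) summed to 105 to 129 CPM in DMSO, 124 to 139 in XAV939 and 113 to 143 in IWR-1. Of 5 tested, 2 were higher past 0.05 with XAV939 and 3 with IWR-1. All 8 chondrocyte markers were higher past 0.05 with IWR-1 and 3 of 8 with XAV939. In the siRNA table the fibroblast and synovium sum ran from 3275 to 5570 CPM in siCtrl and from 1558 to 4478 in siTnks/2, and the endothelial sum from 0.933 to 1.56 and from 0.937 to 8.20 CPM. The leukocyte sum ran from 9.31 to 11.97 CPM in siCtrl and 8.33 to 9.92 in siTnks/2, and the osteoblast sum from 171 to 224 and from 205 to 299 CPM. The part of any of these markers in the levels of the 10 transcripts was not tested.

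Divided by exon length in kilobases, so that genes can be set against each other, *Bnip3* was the most abundant of the 10 in DMSO at 373 ± 27.1 CPM per kb (SD, n = 3). *Vegfa* at 141 ± 14.8, *Hif1a* at 123 ± 16.3, *Car9* at 122 ± 11.1 and *Adm* at 120.1 ± 9.24 CPM per kb followed, each overlapping the next. *Egln1* at 103 ± 9.98, *Egln3* at 50.4 ± 1.39, *Epas1* at 33.1 ± 1.03, *Mxi1* at 13.3 ± 1.49 and *Ankrd37* at 7.59 ± 0.582 CPM per kb came below without overlap. With XAV939, *Bnip3* (196), *Hif1a* (95.3) and *Vegfa* (82.6) led, and *Epas1* at 41.3 CPM per kb overlapped *Adm* at 40.3. With IWR-1 the order led with *Bnip3* (227) and *Hif1a* (109), and *Epas1* was at 14.2 CPM per kb, below *Adm* at 26.5. In siCtrl, *Hif1a* at 90.9 ± 2.96 and *Bnip3* at 80.7 ± 16.5 CPM per kb overlapped at the top, while *Car9* at 8.80 ± 5.90, *Egln3* at 2.56 ± 0.221, *Mxi1* at 2.36 ± 0.251 and *Ankrd37* at 1.47 ± 0.138 were lowest. After siTnks/2 *Hif1a* at 118 ± 9.06 CPM per kb lay above *Bnip3* at 57.9 ± 5.55. The tables were normalised separately and differ in transfection, so siCtrl and DMSO levels were not tested against each other.

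IWR-1 was also set directly against XAV939, at the same dose and time. That difference follows from the fold changes of both drugs against DMSO, which were known when the genes were picked. The values below are therefore a description, without p-values, and nothing is read from the counts. Over the 10 genes 6 were past 0.05, all lower with IWR-1, where 17.6% of genes were called, 7.37% higher and 10.2% lower. For 8 the groups did not overlap, IWR-1 being lower, where 37.6% of genes did not overlap, 18.2% higher and 19.4% lower. *Epas1* differed most, by -1.54 on the log2 scale (SE 0.11). It was followed by *Car9* at -0.98 (SE 0.11), *Egln3* at -0.84 (SE 0.10), *Ankrd37* at -0.83 (SE 0.14) and *Adm* at -0.61 (SE 0.11). *Vegfa* at -0.42 (SE 0.12) lost its call without any 1 of IWR-1 replicates 1 (-0.35), 2 (-0.46) and 3 (-0.45) or of XAV939 replicates 2 (-0.38) and 3 (-0.40). *Mxi1* was not past 0.05 at -0.30 (95% interval -0.55 to -0.06). It was past 0.05 with the replicate block (-0.30) and in 1 of 9 fits that left out a library. No difference was found for *Egln1*, -0.15 (-0.38 to 0.08), *Hif1a*, 0.19 (-0.10 to 0.48), or *Bnip3*, 0.21 (-0.16 to 0.58), intervals that do not show the drugs to act alike on them.

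**Figure D4:**
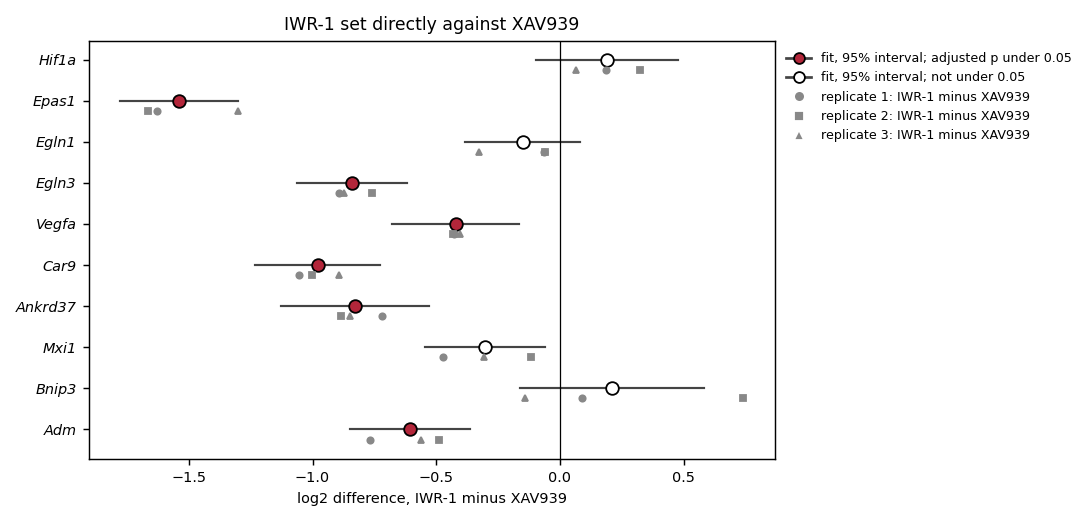
Log2 difference between IWR-1 and XAV939 for each of the 10 transcripts (horizontal axis); large circles and bars are the fit with its 95% interval, filled where the adjusted p is under 0.05, and small grey symbols are the differences within replicate numbers 1 to 3. *Epas1* lies farthest to the left at -1.54, and *Hif1a* and *Bnip3* are the 2 genes above 0.

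The difference between the knockdown and the drug effects was tested as an interaction over the 15 libraries. It is the difference of fold changes already used to pick the genes, so the counts are a description and nothing is read from them. Against XAV939, 6 of the 10 genes had a different effect, each time with a higher log2 fold change after knockdown, where 13.5% of 14271 genes were called, 8.07% in this direction and 5.4% in the other. Against IWR-1, 9 of the 10 did, again all in this direction, where 24.4% were called, 13.9% in this direction and 10.5% in the other. *Bnip3* was past 0.05 in neither. Knockdown and drug treatment differ in agent, transfection, control and table, which cannot be told apart here. The starting levels differed as well. Every target had a lower mean in siCtrl than in DMSO, such as *Egln3* at 6.80 against 134 CPM and *Adm* at 51.6 against 194. The tables were normalised separately, and the part of these levels in the differences was not tested.

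Around the 10 genes, 44 other genes of the pathway in 3 lists were examined, of which 42 were tested in each table (*Epo* and *Kdr* were too low). These lists and those further below were chosen with earlier results of these data known, so their counts are given as a description. With XAV939 1 was higher and 24 lower past 0.05, and with IWR-1 1 was higher and 25 lower, with median log2 fold changes of -0.72 and -0.80. That is 59.5% and 61.9% of those tested, where 17.4% and 36.4% of all genes were called. After knockdown 5 were higher and 4 lower, with a median of -0.03, or 21.4% where 18% of all genes were called, and 19 were called with the replicate block, where 34.6% of all genes were. Between IWR-1 and XAV939 2 were higher and 5 lower, or 16.7% where 17.6% of all genes were called, and 14 were called with the replicate block, where 30.7% of all genes were. Left out 1 at a time, the siRNA libraries gave between 3 (without siCtrl replicate 1) and 14 calls (without siTnks/2 replicate 2), where 4.4% and 20.8% of all genes were called. Without siCtrl replicate 2, siCtrl replicate 3 and siTnks/2 replicate 1 there were 5, 4 and 4, where 6.72%, 4.91% and 5.78% of all genes were called. Without IWR-1 replicate 1 or 2, the direct comparison gave 3 calls, where 10.1% and 9.57% of all genes were called.

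Among the 6 subunits and coactivators (*Hif3a*, *Arnt*, *Arnt2*, *Ep300*, *Crebbp*, *Cited2*) only *Cited2*, which competes with the factors for their coactivators, was past 0.05 against a control. It went from 173 ± 11.9 to 78.0 ± 13.1 CPM after knockdown, and from 180.2 ± 35.3 CPM in DMSO to 92.2 ± 15.6 with XAV939 and 85.7 ± 8.07 with IWR-1 (SD, n = 3). Its log2 fold changes were -1.15 (SE 0.13), -0.97 (SE 0.16) and -1.07 (SE 0.16). *Arnt*, the shared partner of both α subunits, was at -0.09 (SE 0.05) after knockdown, -0.14 (SE 0.09) with XAV939 and -0.16 (SE 0.09) with IWR-1, and was past 0.05 in none. After knockdown DESeq2 called 2 of the list and the fit with the replicate block 3, where 16.9% and 34.6% of all genes were called.

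Of the 8 genes of oxygen sensing and HIF degradation (*Egln2*, *Hif1an*, *Vhl*, *Elob*, *Eloc*, *Cul2*, *Rbx1*, *Siah2*), *Vhl*, which encodes the protein that recognises hydroxylated HIF-α, moved in opposite directions. It was at 31.6 ± 2.05 CPM in siCtrl and 44.8 ± 6.83 after knockdown, a log2 fold change of 0.51 (SE 0.12), while 117 ± 7.48 CPM in DMSO stood against 56.9 ± 2.14 with XAV939 and 52.4 ± 3.58 with IWR-1, or -1.04 (SE 0.09) and -1.16 (SE 0.09). *Hif1an*, the asparagine hydroxylase that blocks the factors' activation domain, rose by 0.29 (SE 0.08) after knockdown, and *Cul2*, the scaffold of the VHL ligase, rose by 0.48 (SE 0.10) with IWR-1. No other gene of this list was past 0.05 against a control. After knockdown both *Vhl* and *Hif1an* lost their calls without siCtrl replicate 1 (0.54 and 0.29), 2 (0.53 and 0.31) or 3 (0.46 and 0.27) or without siTnks/2 replicate 1 (0.53 and 0.35), and *Hif1an* also without siTnks/2 replicate 3 (0.30).

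The third list holds 30 further non-glycolytic targets, of which 28 were tested. With XAV939 22 fell and 1 rose, with IWR-1 23 fell, and after knockdown 3 rose and 3 fell. The share called was 82.1% with each drug, where 17.4% and 36.4% of all genes were, and 21.4% after knockdown, where 18% were. With the replicate block 14 were called after knockdown, where 34.6% of all genes were. *Ero1a*, an oxidase of the endoplasmic reticulum, fell with XAV939 by 1.28 on the log2 scale (SE 0.12) and rose after knockdown by 0.36 (SE 0.06). *Insig2*, a brake on sterol synthesis, fell by 1.34 with IWR-1 (SE 0.09). Both were lower with the other drug too, *Ero1a* at 1211 CPM in DMSO and 706 in IWR-1, and *Insig2* at 141.5 and 74.2 in XAV939. The chemokine receptor *Cxcr4* was the gene that rose with XAV939, from 0.6001 ± 0.159 to 1.81 ± 0.311 CPM, a log2 fold change of 1.58 (SE 0.30). Its DMSO libraries held at most 0.754 CPM, so that fold rests on low counts. After knockdown the lipase inhibitor *Angptl4* rose from 6.55 ± 0.710 to 13.1 ± 2.41 CPM, to 200% of siCtrl, and the cyclin *Ccng2* fell by 0.68 (SE 0.08). Both were lower with each drug. *Angptl4* was at 165 CPM in DMSO, 102 in XAV939 and 49.55 in IWR-1, and *Ccng2* at 77.65, 35.7 and 28.1. The vasoconstrictor *Edn1* was lower past 0.05, at 0.893 ± 0.202 CPM in siCtrl and 0.0914 ± 0.0196 CPM in siTnks/2. Its siTnks/2 libraries held at most 0.107 CPM, so no knockdown fold is given. The knockdown calls were lost for *Angptl4* without siCtrl replicate 1 (0.98) and for *Ero1a* without siCtrl replicate 1 (0.36), siCtrl replicate 3 (0.34) or siTnks/2 replicate 1 (0.32).

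Glycolytic targets, 14 genes, stood lower past 0.05 in 4 with XAV939 and in 11 with IWR-1, with medians of -0.33 and -0.51. These are 28.6% and 78.6% of the list, where 17.4% and 36.4% of all genes were called. After knockdown 7 were lower and 1 higher, with a median of -0.28, or 57.1% where 18% of all genes were called. The XAV939 count was 11 with the replicate block, 8 with DESeq2 and 7 without DMSO replicate 3, where 33.4%, 15.4% and 15.3% of all genes were called. The 8 knockdown calls became 1 without siCtrl replicate 1 or 2, where 4.4% and 6.72% of all genes were called. They became 3 without siCtrl replicate 3 (4.91% of all genes) and 4 without siTnks/2 replicate 1 (5.78%) or 3 (16.1%). The catabolic genes known as targets of HIF-2α in cartilage (*Mmp3*, *Mmp9*, *Mmp12*, *Mmp13*, *Adamts4*, *Nos2*, *Ptgs2*) were lower in 7 of 7 with IWR-1, with a median of -3.13, and in 4 of 7 with 1 higher with XAV939, with a median of -0.81, where 36.4% and 17.4% of all genes were called. Beside these values *Epas1* was at -1.22 with IWR-1 and 0.32 with XAV939, and a link between them was not tested. After knockdown 2 of the 6 tested were higher and 1 lower, where 18% of all genes were called. Their median was 0.825, and *Epas1* was at 0.19. With the replicate block 5 were called, where 34.6% of all genes were. Without siCtrl replicate 2, siCtrl replicate 3 or siTnks/2 replicate 1 the count was 1, where 6.72%, 4.91% and 5.78% of all genes were called.

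**Figure D5:**
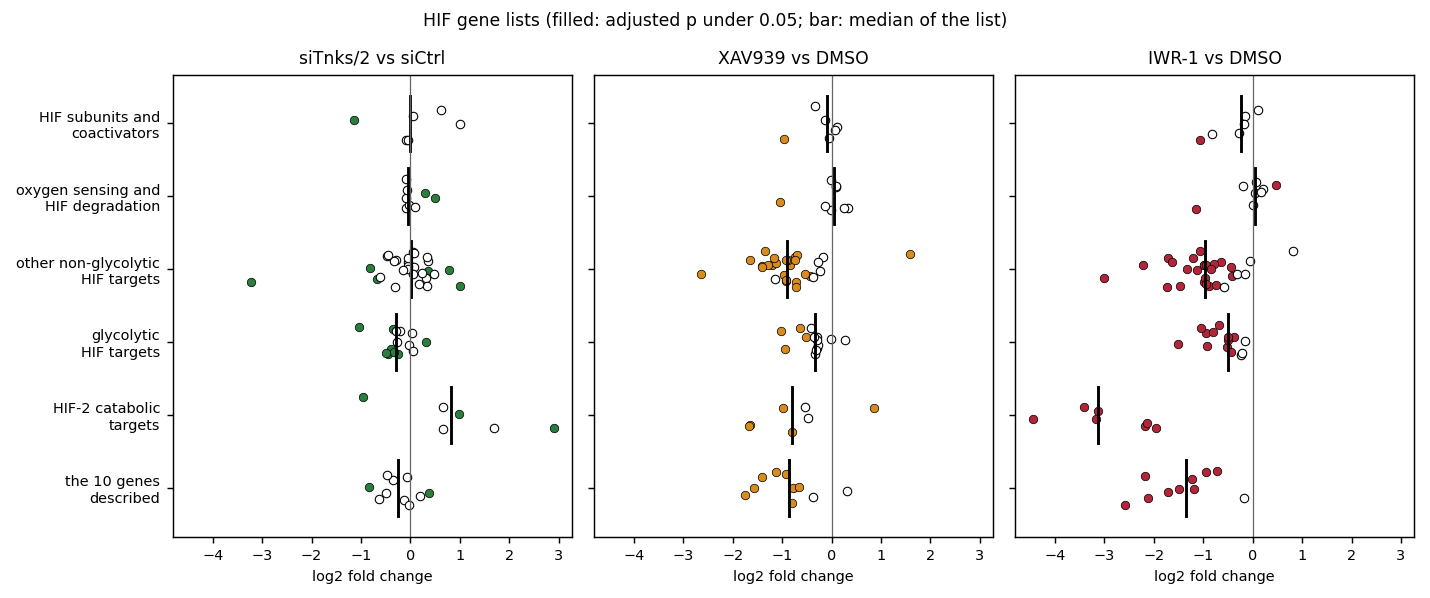
Log2 fold changes (horizontal axis) of the tested genes of 5 HIF gene lists and of the 10 genes described, in the 3 comparisons with a control; each circle is a gene, filled where the adjusted p is under 0.05, and bars are list medians. The other non-glycolytic targets have medians of 0.01 after knockdown, -0.90 with XAV939 and -0.96 with IWR-1, while the medians of the oxygen-sensing list lie at -0.04, 0.05 and 0.06.

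For each of the 10 genes, the most similar patterns were sought among 13341 genes tested in both tables, by the root-mean-square difference of log2 CPM over the 15 libraries after centring within each table. *Egln1* lay nearest to *Higd1a*, at 0.073, against a spread of 0.353 of *Egln1* itself about its table means, then *Rassf1* at 0.1002. *Higd1a* is itself in the list of further HIF targets. *Hif1a* lay nearest to *Wwtr1* (0.081) and *Phf8* (0.082), with an own spread of 0.197, and *Epas1* to *Gsdme* (0.129) and *B4galnt1* (0.165), with an own spread of 0.528. *Egln3* was nearest to *Mpp2* (0.136) and *Maff* (0.218), with an own spread of 0.853, *Vegfa* to *Ppp1r13l* (0.096) and *Bcar1* (0.107), and *Adm* to *Ampd3* (0.173) and *Fstl3* (0.203). For *Mxi1* the nearest were *Pvr* (0.144) and *Tmem45a* (0.151), for *Ankrd37* *Scarb1* (0.163) and *Sipa1* (0.164), and for *Bnip3* *Efnb2* (0.161) and *Sap18* (0.165). *Car9* lay nearest to *Fos* (0.333) and *Mgarp* (0.338), with an own spread of 0.827. These distances are a description over libraries that share their groups.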

How the data were processed

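The authors trimmed reads of stranded mRNA libraries with Trimmomatic (0.32), aligned them to mm10 with TopHat2 (2.0.13) and counted them per gene with HTSeq (0.6.1p1), versions as in the submitters' processing notes. The deposited values are read counts without normalisation in 2 tables, of 6 siRNA and 9 drug libraries. The annotation and strand setting used for counting are not given in the sources used here. Of 24134 gene IDs, 24051 matched a symbol, and 0 columns belonged to other samples. Reads carry no molecular identifiers, so the spread between libraries is the only error measured.

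From these counts, filterByExpr, TMM and the quasi-likelihood test of edgeR 4.0.16 in R 4.3.3 were run on each table, with all groups of a table in 1 model and Benjamini-Hochberg adjustment over all genes tested. Interactions used 1 model over 15 libraries and 14271 genes. Lengths are exon bases in GENCODE M21. The steps were tested on simulated data.

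Alternatives were RLE and upper-quartile normalisation, no filter, at least 10 counts in every library, DESeq2 1.42.0, the replicate number as a block, only the 2 groups compared, and each library left out. Same-numbered libraries deviated together from their group means. Their correlations ran from 0.143 to 0.553 over 9 pairs of the drug table and from 0.424 to 0.519 over 3 siRNA pairs, all above 0.1. Libraries of different number reached 0.318 and 0.097. DMSO replicate 2 was nearer to replicate 1 of XAV939 (0.318) and IWR-1 (0.316) than to their replicate 2 (0.143 and 0.244). The pairing comes from the numbers in the labels, and no 2 libraries were duplicates.

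The genes and all lists were chosen with earlier results of these data known. Named genes are the 10, *Tnks* and *Tnks2*, the 2 most significant genes past 0.05 in each direction, per pathway list (3) and comparison with a control, and the 2 most similar genes per transcript. *Arnt* and *Ufsp2* were named after their values were seen. For 1 list gene, results are not reported here.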

Additional observations from a re-analysis of the deposited data

Results flagged for a closer look

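Several transcripts differed between treatments when the difference itself was tested over all genes with edgeR's quasi-likelihood test. The genes were chosen with the fold changes against the controls known, and every difference below follows from those fold changes. The differences are therefore given as a description, without p-values. Between IWR-1 and XAV939, 6 of the genes were past 0.05, where 17.6% of all genes were called, 7.37% higher and 10.2% lower. Their log2 differences were -1.54 for *Epas1*, -0.98 for *Car9*, -0.84 for *Egln3*, -0.83 for *Ankrd37*, -0.61 for *Adm* and -0.42 for *Vegfa*. Each was lower in all 3 IWR-1 libraries than in all 3 XAV939 libraries, as were 19.4% of all genes. *Egln1* and *Mxi1* were lower in this way too but were not past 0.05. The *Vegfa* call held in 4 of 9 fits that left out a library.

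Set against the XAV939 effect, the knockdown effect was higher by 1.41 for *Egln3* (SE 0.17), 1.40 for *Mxi1* (SE 0.16), 0.77 for *Hif1a* (SE 0.16), 0.76 for *Adm* (SE 0.19), 0.71 for *Vegfa* (SE 0.18) and 0.68 for *Egln1* (SE 0.19) on the log2 scale. These genes were past 0.05, where 13.5% of all genes were called, 8.07% in this direction. *Hif1a* was the transcript whose fold change had opposite signs in this pair, 0.38 after knockdown and -0.37 with XAV939. The call for *Egln1* was lost in 6 of 15 fits that left out a library and that for *Vegfa* in 1, without DMSO replicate 1 (0.63).

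Set against the IWR-1 effect, the difference was 2.25 for *Egln3* (SE 0.17), 1.70 for *Mxi1* (SE 0.16), 1.64 for *Car9* (SE 0.54), 1.42 for *Epas1* (SE 0.16), 1.36 for *Adm* (SE 0.19), 1.13 for *Vegfa* (SE 0.18), 0.87 for *Ankrd37* (SE 0.23), 0.82 for *Egln1* (SE 0.19) and 0.57 for *Hif1a* (SE 0.16). These genes were past 0.05, where 24.4% of all genes were called, 13.9% in this direction. *Car9* lost its call in 8 of the 15 fits that left out a library, *Hif1a* without IWR-1 replicate 1 (0.53) and *Ankrd37* without siTnks/2 replicate 3 (0.64).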

How the results depend on the processing

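In the IWR-1 comparison all 160 values of the 10 transcripts under an alternative kept their direction and their side of 0.05, as did 153 of 160 with XAV939, where 7 gained a call, and 104 of 120 after knockdown. With the replicate block, which follows the pairing of the libraries, the calls after knockdown went from 2 to 5 of the 10 genes and from 9 to 19 of the other pathway genes, and those between IWR-1 and XAV939 from 7 to 14 of the other pathway genes. Beside the calls named in the report it added *Car9* in the knockdown against XAV939 (0.73), and no other call of the 10 changed. Leaving out 1 library gave 0 to 3 calls among the 10 after knockdown, 3 to 14 among the other pathway genes after knockdown and 3 to 10 between the drugs. In those fits 4.4% to 20.8% of all genes were called after knockdown and 9.57% to 21.7% between the drugs. Over such fits the knockdown value ran from -0.25 to 0.028 in *Egln1*, -0.17 to 0.054 in *Vegfa*, -0.88 to 0.18 in *Car9*, -0.10 to 0.059 in *Mxi1* and -0.24 to 0.58 in *Cxcr4*, turning sign without siCtrl replicate 2, and in *Mxi1* and *Cxcr4* also without siTnks/2 replicate 3. *Hif1an* with XAV939 ran from -0.12 to 0.11 and *Tnks* with IWR-1 from -0.51 to 0.47, both turning without DMSO replicate 3. Between the drugs *Cited2* ran from -0.22 to 0.021, and for knockdown against XAV939 *Ankrd37* from -0.19 to 0.14. *Edn1* ran from -0.31 to 1.70 between the drugs, on at most 0.436 CPM with IWR-1 and 0.296 with XAV939. Under upper-quartile normalisation *Hif1an* turned to 0.035 and this *Ankrd37* difference to -0.027. None of these had been past 0.05, and the cause was not tested. Over all genes, calls went with the block from 2459 to 4727 after knockdown, from 2410 to 4630 with XAV939, from 2442 to 4258 between the drugs and from 1922 to 4018 for knockdown against XAV939, and with only the 2 groups compared to 1569 for XAV939. For knockdown against XAV939 the higher calls were 1152 of 1922, and 907 of 1918 under upper-quartile normalisation. With 3 libraries per group, a p that misses 0.05 does not show that levels were equal, and *Ankrd37* and *Egln3* in the siRNA table rest on a few CPM.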
